A study of Mus musculus with 12 samples.

Results

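Sarcomere and muscle contractile genes were followed from undifferentiated mouse embryonic stem cells (ESC, day 0) to differentiating cells at day 3 that had been sorted into an Eomes-positive (Eo+) and an Eomes-negative (Eo−) fraction. The set holds 9 genes, namely the myosin light chains Myl7, Mylpf and Myl4, the actins Acta1 and Actc1, the troponins Tnnt2, Tnnc1 and Tnni1, and the tropomyosin Tpm1. Each gene was matched by name to a locus of the assembled transcript annotation, and 8 of the 9 found a locus among the 80012 counted loci. Acta1, skeletal muscle actin, matched none and was not analysed here. The set was chosen with the pattern of its 2 leading genes in view, high Myl7 in Eo+ cells and high Mylpf in ESC, so the values of these genes are given as a description and without a test.

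All 12 libraries came from C57BL/6 ESC that carry an EGFP reporter in the Eomes gene, and each group has 4 libraries, numbered 1, 2, 5 and 6. The ESC had been grown on mouse embryonic fibroblast feeder cells before differentiation. The Eo− and Eo+ fractions were taken at day 3 of hanging drop differentiation and separated by EGFP fluorescence, so Eomes itself is the sorted gene. The line is a single reporter line, and the day 3 groups are mixed populations defined by 1 reporter. Poly(A) RNA was sequenced, and 648413022 to 837308168 reads were assigned to loci per library. At this depth 3 counts were worth at most 0.00463 CPM (counts scaled to 1 M assigned reads), which covers counting error only. Eomes, a T-box factor of the mesendoderm, measured 46.5 ± 8.82 CPM (SD, n = 4, as for all means here) in ESC, with 137 ± 22.2 CPM in the Eo− fraction and 527 ± 96.9 CPM in the Eo+ fraction. Summed levels of 7 pluripotency markers were 2958 to 3835 CPM in ESC, 1290 to 1649 CPM in Eo− and 459 to 807 CPM in Eo+ libraries.

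Muscle contracts when myosin heads of the thick filament pull on actin of the thin filament within the sarcomere. Each myosin head carries an essential and a regulatory light chain. The troponin complex and tropomyosin lie along actin and release it for myosin when calcium binds troponin C. In the embryo the first sarcomeres form in the heart, and the cardiac precursors descend from Eomes-expressing mesendoderm. Several of these proteins have forms for heart, fast skeletal, slow skeletal and smooth muscle, and close relatives serve in cells without sarcomeres.

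The promoters of 4 of the genes are shown because these genes carry the contrasts described here. Myl7 and Mylpf moved in opposite directions, while Actc1 and Tnnt2 had the highest ratios of the highest to the lowest Eo+ library among the 8 genes (6.13 and 6.09). The sequences are from RefSeq (GRCm38.p6) and run 5′ to 3′ on the strand of the gene, from 250 bases before the annotated start to 50 bases after it. Capitals mark every match, on either strand, to the CArG box and the MEF2 site, and to the short motifs GATAA of GATA factors, TATAAA of the TATA box, and TCACACC of T-box factors such as Eomes itself. The Myl7 promoter is at chr11:5898733-5899032 on the minus strand, that of Mylpf at chr7:127211358-127211657 on the plus strand, that of Actc1 at chr2:114052826-114053125 on the minus strand, and that of Tnnt2 at chr1:135836084-135836383 on the plus strand. That of Mylpf holds none of these motifs and so has no capitals.
Myl7: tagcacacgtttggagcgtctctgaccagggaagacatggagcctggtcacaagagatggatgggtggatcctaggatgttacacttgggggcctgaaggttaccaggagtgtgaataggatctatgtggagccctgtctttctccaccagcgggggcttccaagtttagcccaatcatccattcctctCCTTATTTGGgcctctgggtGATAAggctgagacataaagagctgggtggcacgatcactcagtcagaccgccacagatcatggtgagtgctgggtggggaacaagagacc
Mylpf: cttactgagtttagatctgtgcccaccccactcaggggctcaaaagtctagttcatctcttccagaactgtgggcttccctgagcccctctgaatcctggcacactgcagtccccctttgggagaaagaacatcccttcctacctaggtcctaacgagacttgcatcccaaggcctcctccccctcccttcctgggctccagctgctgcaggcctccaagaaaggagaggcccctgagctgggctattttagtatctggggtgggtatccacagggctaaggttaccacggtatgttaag
Actc1: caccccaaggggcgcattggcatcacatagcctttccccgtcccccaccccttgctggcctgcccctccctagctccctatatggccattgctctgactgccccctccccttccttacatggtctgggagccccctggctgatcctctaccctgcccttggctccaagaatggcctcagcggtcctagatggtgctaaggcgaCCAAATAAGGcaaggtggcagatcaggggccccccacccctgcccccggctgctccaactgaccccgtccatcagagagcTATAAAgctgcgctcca
Tnnt2: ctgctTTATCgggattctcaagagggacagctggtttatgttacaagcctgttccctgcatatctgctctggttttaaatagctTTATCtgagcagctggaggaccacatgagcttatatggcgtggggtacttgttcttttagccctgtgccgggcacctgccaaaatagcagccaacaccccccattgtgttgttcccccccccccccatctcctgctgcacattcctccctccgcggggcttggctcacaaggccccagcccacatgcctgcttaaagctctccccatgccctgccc

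RefSeq promoters were found for all 8 genes, 10 promoters in all because Tnnt2 and Tnni1 have 2 each. A CArG box, the motif bound by serum response factor, occurred in 2 of the 10, those of Myl7 and Actc1, and in 1.63% of the 32851 promoters of the genome. It starts 61 bases upstream of the Myl7 start and 47 bases upstream of the Actc1 start. Both boxes hold the same 10 bases on opposite strands, CCTTATTTGG in Myl7 and CCAAATAAGG in Actc1, and this exact run was found in 24 promoters (0.0731%). GATAA, the core read by GATA factors, was present in 2 of the 10 promoters against 25.4% of all promoters, 41 bases upstream of the Myl7 start and at 2 sites of the first Tnnt2 promoter, 245 and 166 bases upstream. TATAAA was found in the Actc1 promoter alone among the 10, 34 bases after the annotated start, and in 13.6% of all promoters. The MEF2 site (3.19% of all promoters) and TCACACC (3.98%) had no match in these 10 windows. CANNTG, the E-box, which reads the same on both strands and is not in capitals, matched 9 of the 10 promoters and 72.3% of all promoters. These matches describe letters only, with no measurement of binding.

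Myl7 encodes the regulatory light chain of atrial myosin, also known as a marker of the early heart tube. It was counted at XLOC_011440, at positions 5895449 to 5899539 on the minus strand of chromosome 11 in mm10. In the Eo+ libraries 1, 2, 5 and 6 its level was 122, 147, 87.3 and 184 CPM. The Eo− libraries held 1.57, 2.38, 0.998 and 0.927 CPM, and the ESC libraries 0.301, 0.256, 0.454 and 0.216 CPM. The lowest Eo+ library was far above the highest Eo− library, and the lowest Eo− library (0.927 CPM) was above the highest ESC library (0.454 CPM). The mean level was 441-fold higher in Eo+ cells than in ESC and 92.0-fold higher than in Eo− cells, and Eo− cells exceeded ESC 4.79-fold.

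Of the 14216 protein-coding loci that were tested, Myl7 had the largest log2 fold change between Eo+ and Eo− (6.57 ± 0.37, SE). Between Eo+ and ESC it was the seventh largest (rank 7, 8.77 ± 0.52), and between Eo− and ESC it ranked 370 (2.20 ± 0.61). Per kilobase of exon, Myl7 reached 49.0 ± 14.8 FPKM in Eo+ cells (rank 923 of 14216), from 0.111 ± 0.0378 FPKM in ESC. FPKM is the CPM of a locus divided by its summed exon length in kilobases. At least 143 reads supported every Myl7 value, so the low ESC level was measured well above the counting floor.

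Mylpf is the regulatory light chain of fast skeletal muscle myosin. Its locus XLOC_063069 lies on chromosome 7 (plus strand, 127208838 to 127214298). The ESC libraries 1, 2, 5 and 6 held 82.7, 120.1, 118 and 109 CPM. In Eo− libraries it was 4.66, 5.07, 5.41 and 4.66 CPM, and in Eo+ libraries 1.91, 1.66, 1.98 and 1.67 CPM. None of the groups overlapped with another, and the spread within Eo− and Eo+ was small, with a highest to lowest ratio of 1.16 and 1.20. ESC exceeded Eo− 21.7-fold and Eo+ 59.6-fold on the means, and Eo− exceeded Eo+ 2.74-fold. The log2 fold changes were −5.88 ± 0.20 for Eo+ against ESC, −4.43 ± 0.16 for Eo− against ESC and −1.46 ± 0.23 for Eo+ against Eo− (SE). Divided by summed exon length, Mylpf had the highest ESC value of the members (96.5 ± 15.5 FPKM, rank 477 of 14216 protein-coding loci). In CPM, Tpm1 was higher in ESC (338 ± 140 CPM against 107.6 ± 17.3 CPM).

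**Figure D1:**
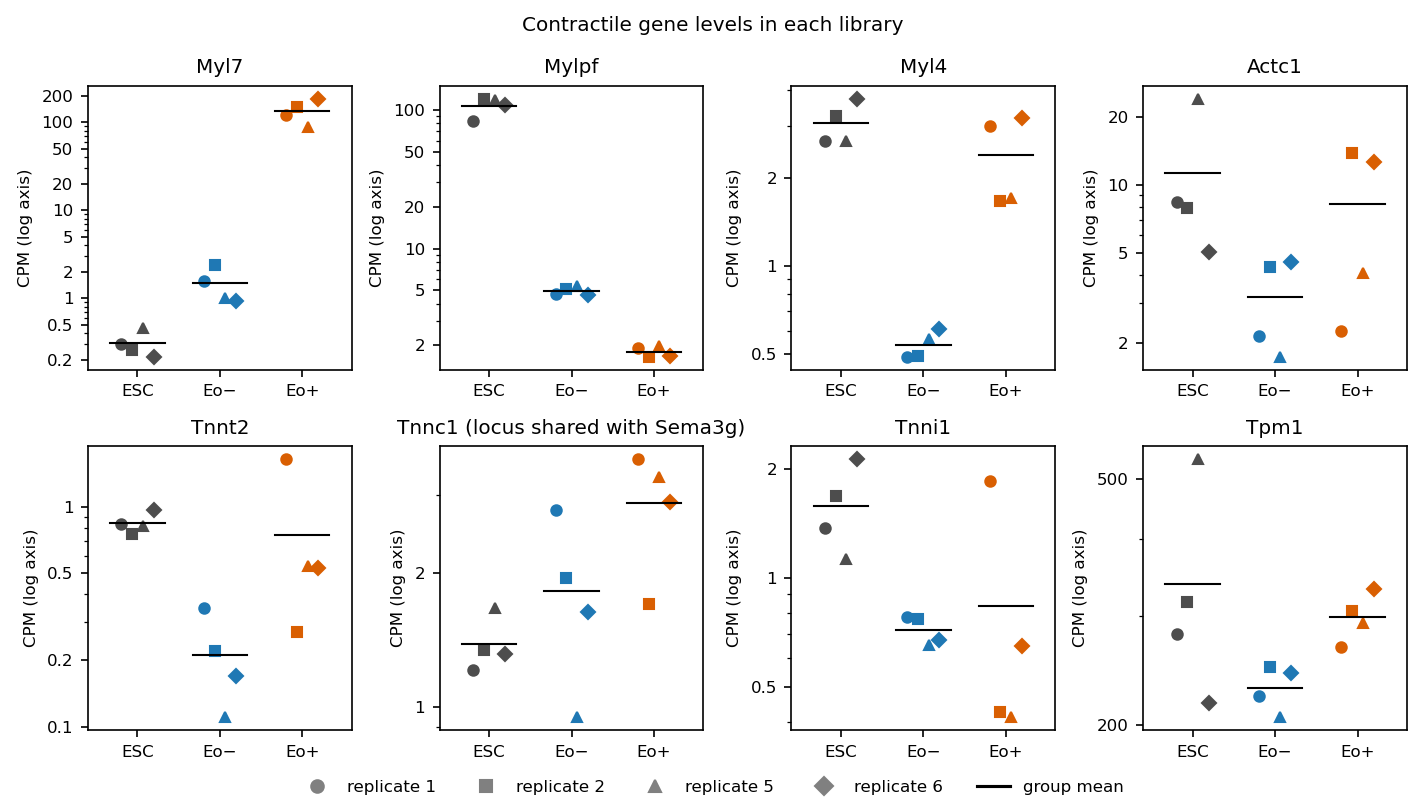
Level of each contractile gene in the 12 libraries, in CPM on a log axis, with 1 panel per gene, 1 symbol per replicate number and a bar at the group mean (n = 4). Myl7 rises from 0.307 CPM in ESC to 135 CPM in Eo+ cells, Mylpf falls from 107.6 to 1.80 CPM, and the remaining genes stay within a narrower range.

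The assembled transcripts of Mylpf and of Myl7 did not all begin at the RefSeq start. Of the 7 assembled Mylpf transcripts, 1 began at the annotated start, 3 began 2742 to 2770 bases upstream of it, and 3 inside the gene. The most upstream start lies 29 bases from the 5′ end of the neighbouring Cd2bp2/Tbc1d10b locus, which is transcribed in the opposite direction. The promoter of Mylpf shown above belongs to the annotated start. One of 4 Myl7 transcripts began 757 bases upstream, and the other 3 at the annotated start. Counts were made per locus, so the share of reads from each start is not known here.

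Some neighbouring loci within 20000 bases were read out to see whether the patterns were shared along the chromosome. Sept1, a septin gene that ends 149 bases from the 3′ end of Mylpf on the opposite strand, measured 79.1 ± 20.7 CPM in ESC, with 9.76 ± 1.78 CPM in the Eo− fraction and only 2.25 ± 0.476 CPM in the Eo+ fraction. Its order across groups was that of Mylpf, with a log2 fold change of −5.13 ± 0.26 in Eo+ against ESC (limma adjusted p = 2.01e-09). The Cd2bp2/Tbc1d10b locus fell by 0.45 ± 0.07 on the log2 scale (limma adjusted p = 7.05e-05), and Zfp553 by 0.37 ± 0.08 (limma adjusted p = 0.000886). Beside Myl7, Pold2, a DNA polymerase subunit 17157 bases away on the same strand, was at 149 ± 14.0 CPM in ESC and 133 ± 10.8 CPM in Eo+ cells (limma adjusted p = 0.136). The neighbours were picked by position, after the member values were known.

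**Figure D2:**
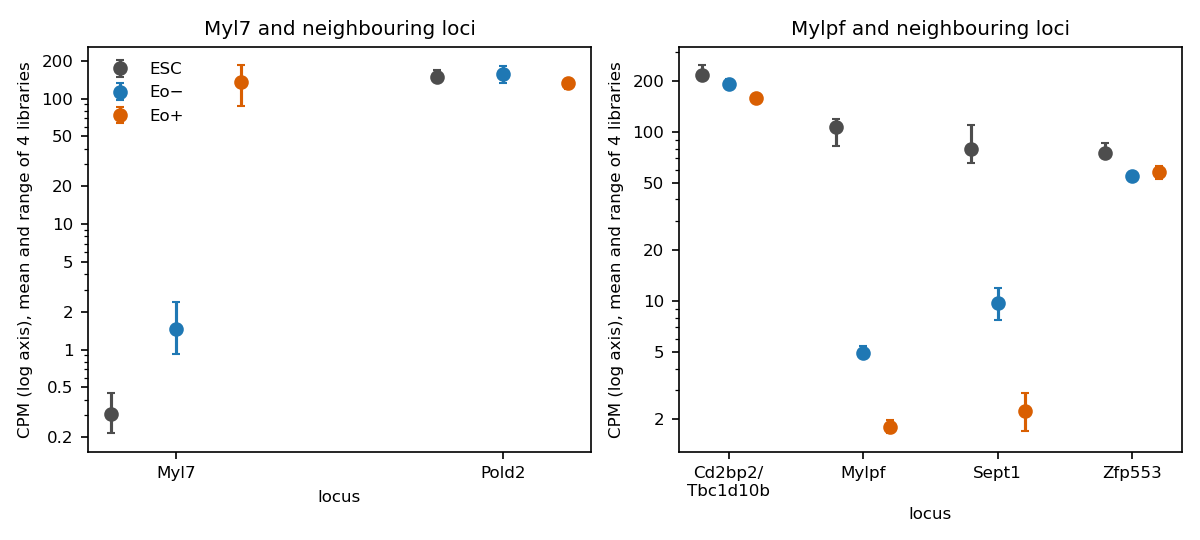
Level of Myl7, Mylpf and neighbouring loci in CPM on a log axis, as the mean (point) and the range (bar) of 4 libraries per group. Sept1 follows the order of Mylpf, and Pold2, Zfp553 and Cd2bp2/Tbc1d10b stay within a narrow range.

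The 6 further members with a locus were measured in the 3 comparisons, which ask what changes from pluripotent to mesendoderm cells (Eo+ vs ESC), to reporter-negative cells of the same cultures (Eo− vs ESC), and between both fractions (Eo+ vs Eo−). The first pair of comparisons shares the ESC libraries. Of these 6 genes, 5 passed the filter of a mean above 0.1 FPKM in a group. In Eo+ vs ESC, 1 of the 5 was called higher (the Tnnc1 locus) and 1 lower (Tnni1), at a limma adjusted p of at most 0.05 over 17922 loci. The background was 71.9% of all loci (35.8% rose and 36.1% fell). In Eo− vs ESC, Myl4, Actc1 and Tnni1 fell and none of the 5 rose, against a background of 62.2% (30.9% rose, 31.3% fell). In Eo+ vs Eo− only Myl4 of the 5 was called, as higher, against a background of 47.7% (23% rose, 24.6% fell). All 4 libraries of one group lay beyond all 4 of the other for the Tnnc1 locus in Eo+ vs ESC (64.5% of all loci did so), for Myl4, Actc1, Tnnt2 and Tnni1 in Eo− vs ESC (55.8%) and for Myl4 and Tpm1 in Eo+ vs Eo− (45.9%). The shares of members called were near or below the background. Every value is from bulk RNA, in which fewer cells of a type and less RNA per cell cannot be told apart.

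**Figure D3:**
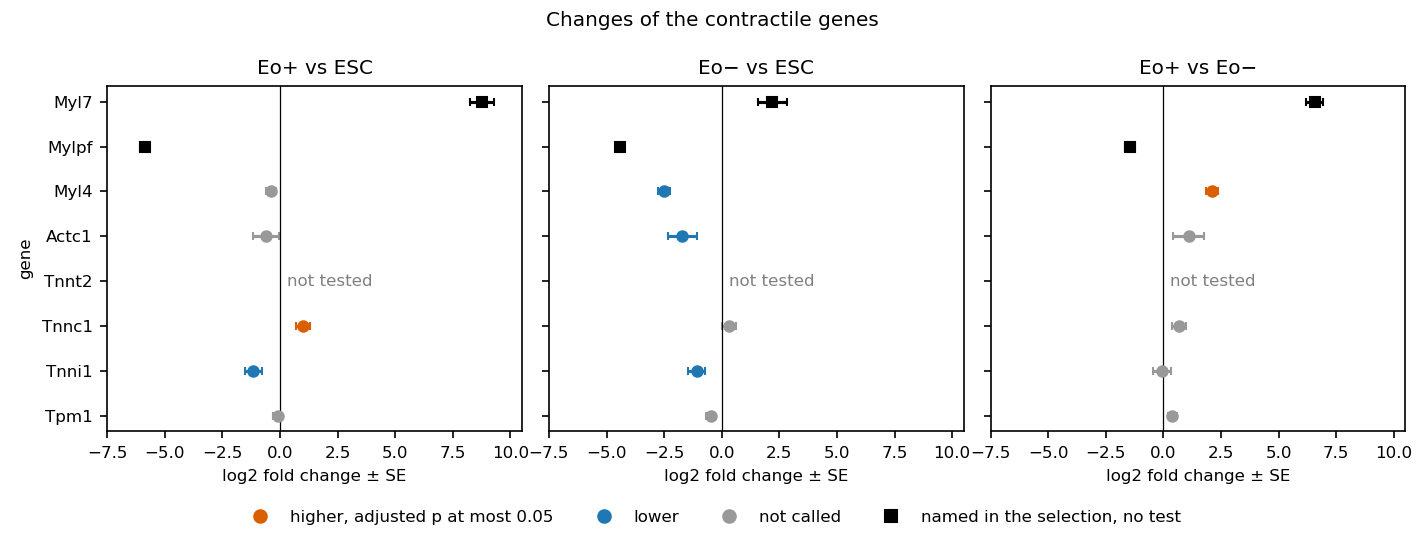
Log2 fold change ± SE of each contractile gene in the 3 comparisons, from the limma fit over 12 libraries. Squares mark Myl7 and Mylpf, which carry no test, and Tnnt2 was below the filter. Myl4 lies below 0 in Eo− vs ESC (−2.50) and above 0 in Eo+ vs Eo− (2.09).

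Myl4, the essential light chain of atrial and embryonic muscle myosin, was lowest in Eo− cells. It was counted at XLOC_011023 (chromosome 11, plus strand, 104550663 to 104595854). ESC libraries 1, 2, 5 and 6 held 2.68, 3.26, 2.68 and 3.72 CPM, Eo− libraries 0.490, 0.492, 0.564 and 0.608 CPM, and Eo+ libraries 3.02, 1.66, 1.71 and 3.21 CPM. All Eo− libraries lay below all others, while ESC and Eo+ overlapped. Myl4 fell by 2.50 ± 0.26 (log2, SE) in Eo− against ESC (limma adjusted p = 2.36e-06) and was higher by 2.09 ± 0.26 in Eo+ than in Eo− (limma adjusted p = 3.18e-05). The change in Eo+ against ESC was −0.41 ± 0.22 (limma adjusted p = 0.102), and it passed the threshold without Eo+ replicate 1 (−0.54, limma adjusted p = 0.0453) or without Eo+ replicate 6 (−0.56, limma adjusted p = 0.0359). The first bases of the locus overlap Cdc27, a cell cycle gene on the other strand, and counting was stranded.

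Actc1 encodes cardiac actin, which embryonic skeletal and heart muscle both use early. It was counted at XLOC_041788, positions 114047282 to 114053548 on the minus strand of chromosome 2. ESC libraries 1, 2, 5 and 6 held 8.37, 7.87, 24.0 and 5.06 CPM, Eo− libraries 2.14, 4.33, 1.73 and 4.56 CPM, and Eo+ libraries 2.25, 13.8, 4.09 and 12.6 CPM. ESC replicate 5 stood far above the other ESC libraries, and in Eo+ cells replicates 2 and 6 were high and replicates 1 and 5 low. Replicates 2 and 6 were also the higher libraries among Eo− cells. Actc1 fell by 1.71 ± 0.62 in Eo− against ESC (limma adjusted p = 0.0283). The changes of −0.62 ± 0.56 in Eo+ against ESC (limma adjusted p = 0.338) and of 1.09 ± 0.66 in Eo+ against Eo− (limma adjusted p = 0.186) were not called. Every Eo+ library was above the Eo− library of the same number, by little for replicate 1 (2.25 against 2.14 CPM). The call in Eo− vs ESC was lost without ESC replicate 5 (−1.26, limma adjusted p = 0.0830), Eo− replicate 1 (−1.55, limma adjusted p = 0.0717) or Eo− replicate 5 (−1.47, limma adjusted p = 0.0797), and with the replicate number as a block (−1.60, limma adjusted p = 0.0554). With Eo+ replicate 1 left out Actc1 was called higher in Eo+ than in Eo− (1.62, limma adjusted p = 0.0406).

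Tnnt2, cardiac troponin T, ties the troponin complex to tropomyosin and is a standard label of cardiomyocytes. It was counted at XLOC_001814 (chromosome 1, plus strand, 135836354 to 135852263). It stayed just under the filter, which used FPKM from library totals (highest group mean 0.0997 FPKM over 8237 exonic bases), although ESC reached 0.102 FPKM after normalisation. ESC libraries 1, 2, 5 and 6 held 0.839, 0.749, 0.818 and 0.968 CPM, Eo− libraries 0.347, 0.220, 0.110 and 0.171 CPM, and Eo+ libraries 1.65, 0.270, 0.536 and 0.529 CPM. Eo+ replicate 1 was the highest of the 12 libraries, the other 3 Eo+ libraries lay below every ESC library, and Eo− was below ESC throughout. Without the filter, Tnnt2 fell by 2.03 ± 0.48 in Eo− against ESC (limma adjusted p = 0.00283), was higher by 1.62 ± 0.50 in Eo+ than in Eo− (limma adjusted p = 0.0205), and differed by −0.41 ± 0.41 between Eo+ and ESC (limma adjusted p = 0.419).

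Tnni1 encodes slow skeletal troponin I, the inhibitory subunit that the embryonic heart also uses. It was counted at XLOC_001812 (chromosome 1, plus strand, 135779434 to 135810989). ESC libraries 1, 2, 5 and 6 held 1.37, 1.68, 1.13 and 2.12 CPM, Eo− libraries 0.777, 0.770, 0.653 and 0.672 CPM, and Eo+ libraries 1.85, 0.426, 0.412 and 0.646 CPM. As for Tnnt2, Eo+ replicate 1 stood above the other Eo+ libraries, here inside the range of ESC. Tnni1 fell by 1.16 ± 0.37 in Eo+ against ESC (limma adjusted p = 0.0127) and by 1.09 ± 0.37 in Eo− against ESC (limma adjusted p = 0.0196), and the fractions differed by −0.07 ± 0.40 (limma adjusted p = 0.897). The call in Eo+ vs ESC was lost without Eo+ replicate 2 (−0.92, limma adjusted p = 0.0519) or 5 (−0.91, limma adjusted p = 0.0506) and with edgeR (−0.92, adjusted p = 0.0624), and the call in Eo− vs ESC without ESC replicate 6 (−0.94, limma adjusted p = 0.0529).

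Tnnc1, the calcium-binding subunit of cardiac and slow skeletal troponin, could not be measured apart from a neighbour. The assembly had joined it with Sema3g, a secreted semaphorin, into XLOC_021140 (positions 31206968 to 31230352, plus strand, chromosome 14), and 1 assembled transcript of 21 exons began 88 bases upstream of the Tnnc1 start. ESC libraries 1, 2, 5 and 6 held 1.21, 1.34, 1.67 and 1.31 CPM at this locus, Eo− libraries 2.78, 1.95, 0.947 and 1.63 CPM, and Eo+ libraries 3.62, 1.70, 3.30 and 2.90 CPM. Every Eo+ library was above every ESC library, by a small margin for Eo+ replicate 2, and Eo− overlapped both groups. The locus rose by 1.01 ± 0.31 in Eo+ against ESC (limma adjusted p = 0.00927), with 0.32 ± 0.32 in Eo− against ESC (limma adjusted p = 0.403) and 0.69 ± 0.30 in Eo+ against Eo− (limma adjusted p = 0.0720). The last difference passed the threshold without Eo− replicate 1 (0.94, limma adjusted p = 0.0186) or Eo+ replicate 2 (0.94, limma adjusted p = 0.0134). These values belong to both genes.

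Tpm1, a tropomyosin that muscle and other cells make as different splice forms, was the one member with a high level in all groups. Its locus XLOC_072935 has 23 assembled transcripts at positions 67022574 to 67049406 on the minus strand of chromosome 9. ESC libraries 1, 2, 5 and 6 held 281, 317, 538 and 217 CPM, Eo− libraries 223, 249, 206 and 243 CPM, and Eo+ libraries 268, 306, 293 and 333 CPM. ESC replicate 5 was again the highest library and ESC replicate 6 the lowest of its group, so that ESC overlapped both fractions, while all Eo+ libraries exceeded all Eo− libraries. No difference passed the threshold, with −0.10 ± 0.20 in Eo+ against ESC (limma adjusted p = 0.670), −0.48 ± 0.20 in Eo− against ESC (limma adjusted p = 0.0505) and 0.38 ± 0.20 in Eo+ against Eo− (limma adjusted p = 0.134). The fall in Eo− was called without ESC replicate 1 (−0.54, limma adjusted p = 0.0495) or 6 (−0.67, limma adjusted p = 0.00582), with edgeR (−0.56, adjusted p = 0.0312), DESeq2 (−0.61, adjusted p = 0.00814), DESeq2 size factors (−0.53, limma adjusted p = 0.0316) and the filter of 1 CPM (−0.52, limma adjusted p = 0.0379), and the Eo+ to Eo− difference without ESC replicate 5 (0.38, limma adjusted p = 0.0121). Muscle and nonmuscle splice forms of Tpm1 are not separated in counts per locus.

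The order of the members per kilobase of exon changed between the groups. The length used joins all exons of a locus and can exceed any 1 transcript. For Tpm1 it was 6504 bases, while the longest assembled transcript had 2890. The order therefore depends on this length and does not rank the members by number of transcripts. In ESC, Mylpf (96.5 FPKM) and Tpm1 (52.0 ± 21.5 FPKM) led, followed by Actc1 (6.999 ± 5.30 FPKM), Myl4 (0.588 ± 0.0965 FPKM) and Tnni1 (0.424 ± 0.116 FPKM), and the Tnnc1 locus, Myl7 and Tnnt2 were at 0.203, 0.111 and 0.102 FPKM. In Eo+ cells, Myl7 (49.0 ± 14.8 FPKM) and Tpm1 (46.1 ± 4.15 FPKM) were at similar means with overlapping libraries. Actc1 followed at 5.05 ± 3.62 FPKM and Mylpf at 1.62 ± 0.150 FPKM, and the other 4 were at 0.458 FPKM (Myl4) or less. In Eo− cells Tpm1 (35.4 ± 2.97 FPKM) was above Mylpf (4.44 ± 0.325 FPKM), Actc1 (1.97 ± 0.903 FPKM) and Myl7 (0.533 ± 0.244 FPKM). The highest group mean among the 3 troponin loci was 0.424 FPKM.

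Some members moved together across libraries and most did not. Pearson's r of log2(CPM + 0.1) over the 12 libraries was 0.84 for Myl4 with Tnnt2, 0.83 for Actc1 with Tpm1, 0.73 for Tnnt2 with Tnni1 and 0.73 for Myl7 with the Tnnc1 locus. It was 0.03 for Myl7 with Actc1, 0.06 for Myl7 with Tnnt2, 0.14 for Myl7 with Myl4 and −0.82 for Myl7 with Mylpf. The points share the group structure and the ESC libraries, so these are descriptions. Among 12968 protein-coding loci, the 5 closest to Myl7 were Gm11992 (r = 0.993), the interferon gamma receptor Ifngr1, the chemokine receptor Cxcr4, the BMP signal transducer Smad1 and the ligand Bmp7 (r = 0.988). Cxcr4 measured 2.49, 4.99 and 83.5 CPM in ESC, Eo− and Eo+ cells, and Smad1 12.9, 23.5 and 99.2 CPM. The 5 closest to Mylpf were Calcoco2, a selective autophagy receptor, a locus of Gm5039, Gm5662 and Gm8332, the cytokine Il34, Vwa3b, and the glutathione transferase Gsta3 (r from 0.997 to 0.995), with Calcoco2 at 41.9, 1.67 and 0.623 CPM.

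The wider sarcomere gene set was read for comparison. It joins 83 further genes of the thick filament, the thin filament, the Z-disc with sarcomere assembly, and calcium handling with excitation, which fell on 80 loci, of which 53 were tested. In Eo+ vs ESC 12 of the 53 rose and 31 fell (81.1% called, against 71.9% of all loci, 35.8% higher and 36.1% lower), with a median log2 fold change of −1.04 beside 0.0024 over all loci. In Eo− vs ESC 13 rose and 27 fell (75.5% called, against 62.2% of all loci, 30.9% higher and 31.3% lower), with a median of −0.54 beside 0.016. In Eo+ vs Eo− 10 rose and 22 fell (60.4% called, against 47.7% of all loci, 23% higher and 24.6% lower), with a median of −0.29 beside −0.015. The 27 loci that were not tested had under 0.1 FPKM in all groups. No test compared the set with other genes.

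Thick filament genes mostly fell in Eo+ cells. Of 14 tested loci, 11 were lower and 2 higher in Eo+ than in ESC (36.1% and 35.8% of all loci), and 9 were lower and 1 higher in Eo+ than in Eo− (24.6% and 23% of all loci). The gene that rose in both comparisons was Myl3, the essential light chain of ventricular and slow muscle myosin. Its Eo+ libraries 1, 2, 5 and 6 held 3.32, 1.26, 5.84 and 3.26 CPM, against a highest value of 0.960 CPM in the other groups. Myl3 rose by 2.46 ± 0.43 against ESC (limma adjusted p = 0.000155) and by 1.93 ± 0.41 against Eo− (limma adjusted p = 0.00154). Myl1, the fast skeletal essential light chain, rose by 3.19 ± 0.51 against ESC (limma adjusted p = 6.97e-05) at a low level of 0.666 ± 0.244 CPM.

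Among the myosin heavy chains, the sarcomeric loci Myh6/Myh7, Myh3 and Myh7b are given here. The joined locus of Myh6 and Myh7, the cardiac heavy chains, held 10.4 ± 2.31 CPM in ESC, 11.5 ± 1.73 CPM in the Eo− fraction and 5.50 ± 1.62 CPM in the Eo+ fraction. It fell by 0.92 ± 0.21 against ESC (limma adjusted p = 0.00137) and by 1.09 ± 0.21 against Eo− (limma adjusted p = 0.000714). Myh3, embryonic skeletal myosin, fell by 2.80 ± 0.36 against ESC (limma adjusted p = 8.56e-06), and Myh7b, a slow-type heavy chain, by 1.28 ± 0.27 against Eo− (limma adjusted p = 0.00173). Myl2, the ventricular regulatory light chain, was at 0.316 ± 0.144 CPM in Eo+ cells and 0.367 ± 0.145 CPM in ESC (−0.22 ± 0.36, limma adjusted p = 0.602). It was higher in Eo− cells, at 1.18 ± 0.329 CPM (1.73 ± 0.31 against ESC, limma adjusted p = 0.000284). Ttn, the giant spring protein titin, measured 7.18 to 16.0 CPM in ESC, 1.27 to 2.26 CPM in Eo− and 0.111 to 0.349 CPM in Eo+ libraries, with no overlap between groups, and its long exons kept it under the filter (0.0956 FPKM in ESC).

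Of 7 thin filament loci 3 rose and 3 fell in Eo+ against ESC (35.8% and 36.1% of all loci). Tnnt3, fast skeletal troponin T, held 8.76, 3.49, 5.76 and 6.85 CPM in Eo+ libraries 1, 2, 5 and 6 and at most 1.32 CPM in the other groups. It rose by 3.46 ± 0.41 against ESC (limma adjusted p = 4.26e-06) and by 3.25 ± 0.40 against Eo− (limma adjusted p = 2.59e-05). Tmod4, a cap of the thin filament, rose by 1.85 ± 0.18 (limma adjusted p = 5.30e-07), whereas Tpm2 fell by 0.87 ± 0.16 (limma adjusted p = 0.000213) and Tnnc2, fast skeletal troponin C, fell by 3.90 ± 0.32 (limma adjusted p = 1.15e-07). The joined locus of Tnnt1, Tnni3 and Dnaaf3, which holds slow skeletal troponin T and cardiac troponin I, was at 16.8 ± 3.22, 24.3 ± 4.43 and 21.3 ± 4.64 CPM in ESC, Eo− and Eo+ cells. Its change of 0.35 ± 0.17 in Eo+ against ESC (limma adjusted p = 0.0853) passed the threshold without ESC replicate 6 (0.46, limma adjusted p = 0.0338) or Eo+ replicate 2 (0.45, limma adjusted p = 0.0408) and with no filter (0.42, limma adjusted p = 0.0411), and the locus rose by 0.56 ± 0.17 in Eo− against ESC (limma adjusted p = 0.0107).

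Among 18 loci of the Z-disc and of assembly factors 3 rose and 11 fell in Eo+ against ESC (35.8% and 36.1% of all loci), and 4 rose and 6 fell against Eo− (23% and 24.6% of all loci). The adaptors Pdlim3 and Pdlim5 rose in both comparisons, Pdlim3 from 5.55 ± 1.08 CPM in ESC to 22.9 ± 9.02 CPM in Eo+ cells (1.99 ± 0.27, limma adjusted p = 1.27e-05). Actn2, sarcomeric alpha-actinin, held 6.28 to 8.72 CPM in ESC and 2.71 to 3.76 CPM in Eo+ libraries, and fell by 1.20 ± 0.15 (limma adjusted p = 8.12e-06). Actn3 fell by 1.58 ± 0.24 (limma adjusted p = 4.30e-05) and the chaperone Cryab by 4.50 ± 0.43 (limma adjusted p = 5.32e-07), while Unc45b, a myosin chaperone, fell by 1.14 ± 0.29 against Eo− (limma adjusted p = 0.00614). Among 14 calcium handling loci 4 rose and 6 fell against ESC, and 3 rose and 6 fell against Eo−, beside the same shares of all loci. The calcium pump Atp2a1 rose by 3.46 ± 0.20 (limma adjusted p = 5.64e-09) and Jph1 by 0.79 ± 0.13 (limma adjusted p = 0.000118). The release channel Ryr1 fell by 1.61 ± 0.17 (limma adjusted p = 1.68e-06) and the calcium store protein Casq1 fell by 2.44 ± 0.31 (limma adjusted p = 7.60e-06). Against Eo−, the exchanger Slc8a1 was higher by 0.72 ± 0.20 (limma adjusted p = 0.00918), whereas Hrc, a calcium-binding protein of the reticulum, fell by 1.35 ± 0.29 (limma adjusted p = 0.00163). The pump Atp2a2 was higher by 0.25 ± 0.08 in Eo+ than in Eo− (limma adjusted p = 0.0250), a call that was lost without Eo− replicate 2 or 5 or Eo+ replicate 2 or 6, with changes of 0.20 to 0.22 and a limma adjusted p of up to 0.0760. Ryr2, the cardiac release channel, was under the filter at 0.683 ± 0.433 CPM in Eo+ cells.

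**Figure D4:**
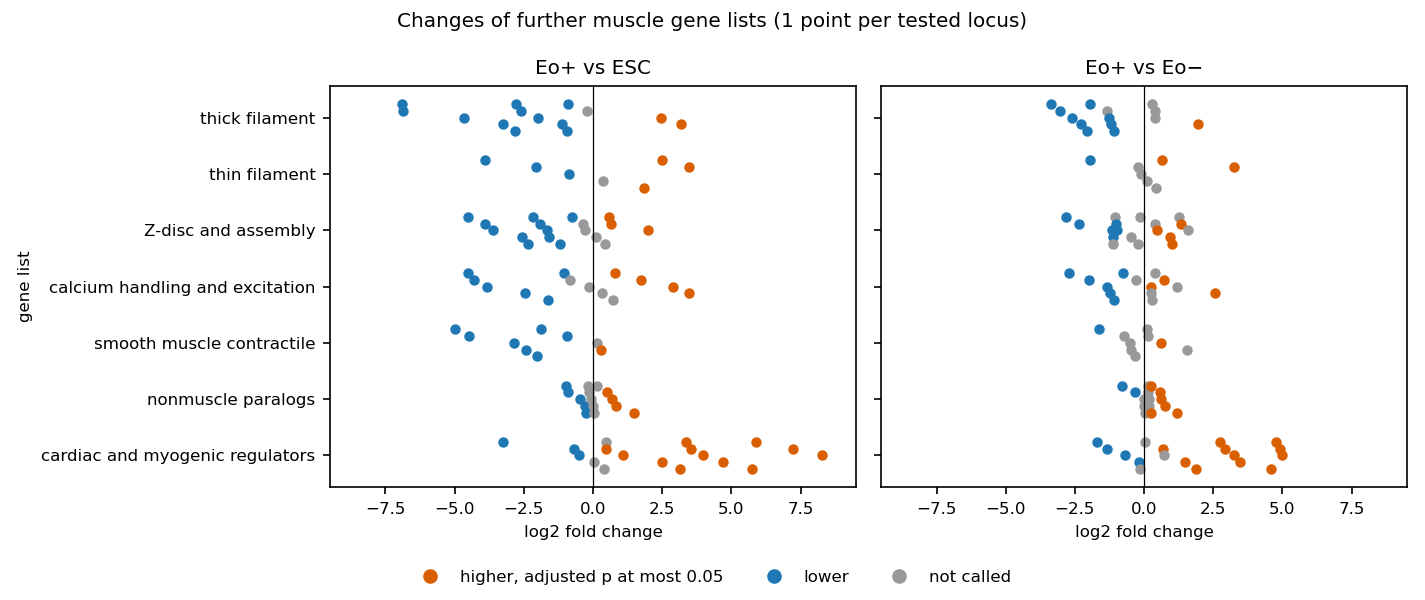
Log2 fold change of each tested locus in 7 gene lists for Eo+ vs ESC and Eo+ vs Eo−, coloured by the limma call. Of the thick filament loci 11 of 14 lie below 0 as called in Eo+ vs ESC, and of the cardiac and myogenic regulators 12 of 18 lie above 0 as called.

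Regulators of cardiac and skeletal muscle were read in the same way. Of 18 tested regulators 12 rose and 3 fell in Eo+ against ESC (83.3% called, where 35.8% of all loci rose and 36.1% fell), the median change being 2.82 (log2), and 11 rose and 4 fell against Eo− (median 1.68, where 23% of all loci rose and 24.6% fell). The difference from the contractile lists was not tested. Gata4 rose from 2.50 ± 0.61 CPM in ESC to 149.8 ± 40.5 CPM in Eo+ cells (5.88 ± 0.40, limma adjusted p = 2.46e-08), and Mesp1, the factor of the earliest cardiac mesoderm, from 0.385 ± 0.154 to 134 ± 77.9 CPM (8.29 ± 1.06, limma adjusted p = 8.18e-06). Srf, the factor that binds the CArG box, fell by 0.50 ± 0.15 (limma adjusted p = 0.00979). Against Eo−, Six4 fell by 0.67 ± 0.11 (limma adjusted p = 0.000278) and Mef2d, a MEF2 factor, by 0.17 ± 0.06 (limma adjusted p = 0.0306), the latter lost without Eo− replicate 2 or 6 or Eo+ replicate 1, 5 or 6 (limma adjusted p of 0.0597 to 0.116) and with no filter (−0.16, limma adjusted p = 0.0831). In the Eo+ libraries 1, 2, 5 and 6 Mesp1 measured 89.3, 213, 48.7 and 186 CPM. Replicates 2 and 6 were thus the higher pair for Mesp1, Myl7 and Actc1 alike.

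Smooth muscle and nonmuscle relatives of the members were read beside them. Of 9 tested smooth muscle genes 7 fell and 1 rose in Eo+ against ESC (36.1% and 35.8% of all loci), with a median of −2.02, and Cald1 rose and Lmod1 fell against Eo−. Acta2, smooth muscle actin, held 120.4, 71.3, 208 and 38.8 CPM in ESC libraries 1, 2, 5 and 6, and 2.47 to 4.83 CPM in the 8 day 3 libraries. It fell by 4.97 ± 0.63 in Eo+ against ESC (limma adjusted p = 8.24e-06), and Tagln, transgelin, fell by 2.41 ± 0.43 (limma adjusted p = 0.000162). Smtn, smoothelin, rose by 0.28 ± 0.10 (limma adjusted p = 0.0209), which was lost without ESC replicate 6 (0.25, limma adjusted p = 0.0503), Eo+ replicate 2 (0.23, limma adjusted p = 0.0647) or Eo+ replicate 6 (0.24, limma adjusted p = 0.0592), and with DESeq2 size factors or the filter of 1 CPM. Lmod1, a leiomodin that nucleates actin in smooth muscle, fell by 1.64 ± 0.23 in Eo+ against Eo− (limma adjusted p = 7.74e-05). Cald1, caldesmon, was higher by 0.60 ± 0.21 (limma adjusted p = 0.0331), which was lost without Eo− replicate 2, 5 or 6 or Eo+ replicate 1 or 5 (limma adjusted p of 0.0557 to 0.0883). Of 15 nonmuscle loci 4 rose and 5 fell against ESC, beside the same shares of all loci. Tpm4, the nonmuscle tropomyosin, rose from 166 ± 34.8 CPM in ESC to 275 ± 9.63 CPM in the Eo− fraction and 460 ± 35.9 CPM in the Eo+ fraction (1.49 ± 0.11 against ESC, limma adjusted p = 4.33e-08). Actn1 rose by 0.52 ± 0.09 (limma adjusted p = 0.000222), whereas Actn4 fell by 0.97 ± 0.07 (limma adjusted p = 2.16e-08) and Actb by 0.28 ± 0.07 (limma adjusted p = 0.00334). Against Eo−, 6 rose and 2 fell (23% and 24.6% of all loci). Of these Cnn2, a calponin, was higher by 0.59 ± 0.19 (limma adjusted p = 0.0190), lost without Eo− replicate 1 or 5 or Eo+ replicate 2 or 6 (limma adjusted p of 0.0502 to 0.0629), and Myh14 fell by 0.79 ± 0.25 (limma adjusted p = 0.0206), lost without Eo− replicate 2 or Eo+ replicate 1 or 6 (limma adjusted p of 0.0556 to 0.0646).

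Markers of other cell types moved with some of these values. A list of 17 fibroblast markers, which could come from feeder cells, summed to 399, 187, 303 and 164 CPM in ESC libraries 1, 2, 5 and 6, to 88.5 to 109 CPM in Eo− and to 102 to 146 CPM in Eo+ libraries. Of the 15 tested, 11 fell and 2 rose in Eo+ against ESC (36.1% and 35.8% of all loci), and none of the 17 was at or under 3 counts in an ESC library. Col1a1 was at 63.8 ± 27.0 CPM in ESC and 3.20 ± 1.42 CPM in Eo+ cells. Mmp2, 1 of the 2 that rose, was at 23.9 ± 4.77, 37.3 ± 2.91 and 49.8 ± 6.87 CPM in ESC, Eo− and Eo+ cells. The day 3 sums thus join genes that fell with genes that rose, and are not a measure of feeder RNA alone. The ESC libraries with the higher sums, 1 and 5, were also those with the higher Acta2, and replicate 5 held the highest Actc1 and Tpm1. Tagln held 141, 183, 355 and 81.4 CPM in ESC libraries 1, 2, 5 and 6, so that replicate 2 exceeded replicate 1. Tpm1 too was higher in replicate 2 (317 CPM) than in replicate 1 (281 CPM). Whether feeder RNA contributed to Actc1, Tpm1, Acta2 or Tagln in ESC was not tested. Mylpf held 82.7, 120.1, 118 and 109 CPM in the same ESC libraries, where the fibroblast sum was 399, 187, 303 and 164 CPM.

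Eo+ replicate 1, in which Tnnt2 and Tnni1 were high, held the highest sum of 8 visceral endoderm markers among the 12 libraries, 93.1 CPM. The remaining Eo+ libraries held 11.6 to 53.5 CPM, with 6.02 to 16.2 CPM in Eo− and 5.55 to 10.6 CPM in ESC libraries. Of these 8 markers 6 rose and 1 fell in Eo+ against ESC (35.8% and 36.1% of all loci). The sum of 8 primitive blood markers in Eo+ replicate 1 was 102 CPM and that of the rest of the Eo+ libraries 18.2 to 57.0 CPM. Eo− replicate 1 held 132 CPM and the other Eo− libraries 7.50 to 15.2 CPM. These sums differed in make-up between the fractions. Tal1 reached 83.9 CPM in Eo+ and 26.1 CPM in Eo− libraries. The globin genes were higher in Eo−, where Hbb-bh1 reached 73.4 CPM and Hba-x 16.2 CPM. In Eo+ libraries they reached 7.40 and 0.265 CPM. The sums therefore do not compare the amount of blood RNA between Eo+ and Eo− libraries. Of the 8 blood markers 2 rose and none fell in Eo+ against ESC. The 7 mesendoderm markers, all 7 of which rose, summed to 3137 and 2714 CPM in Eo+ replicates 2 and 6 and to 1824 and 1980.2 CPM in replicates 1 and 5, the order seen for Actc1. The part of these cell types in the values of Tnnt2, Tnni1 and Actc1 was not tested. Without Eo+ replicate 1 the Eo+ vs ESC counts over the 53 sarcomere loci were 13 higher and 31 lower, beside 12 and 31 with it.

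**Figure D5:**
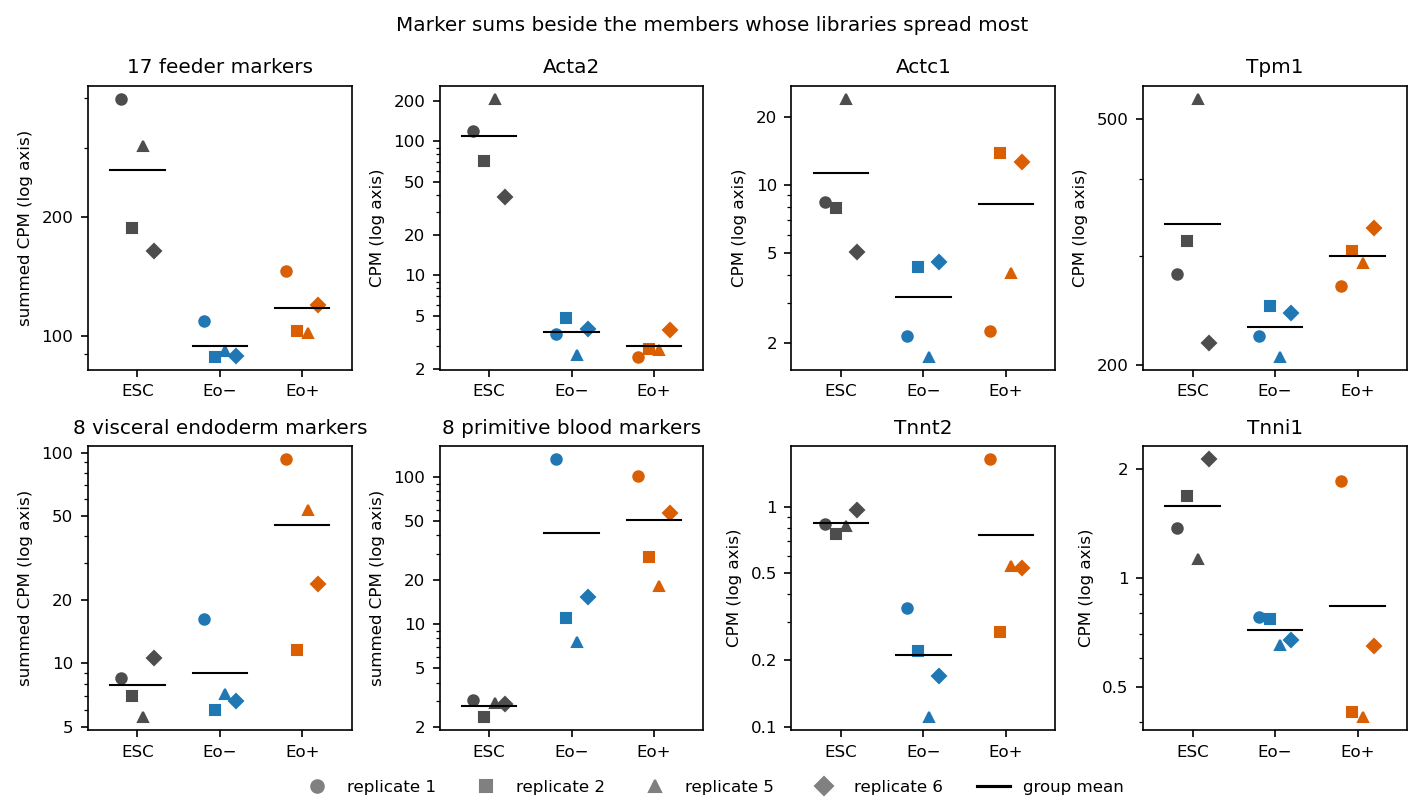
Summed CPM of 3 marker lists and CPM of 5 genes in each of the 12 libraries, on log axes, with 1 symbol per replicate number and a bar at the group mean. ESC replicate 5 (triangle) is the highest library for Acta2, Actc1 and Tpm1, and Eo+ replicate 1 (circle) is the highest library for the visceral endoderm sum and for Tnnt2.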

How the data were processed

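The deposited values are raw read counts per locus, made by the authors from poly(A) RNA reads mapped to mm10 with STAR, assembled with Cufflinks and counted with HTSeq in union mode on the stranded reads, leaving out reads without a unique place (tools per the labels, settings per the study's methods). HTSeq tally lines, which name no gene, were left out. The 9 genes and all gene lists were chosen with earlier results of these data known. Genes were matched to loci through assembled transcripts that equal an annotated one or share a splice junction with it. Where a gene had several loci, the one with the most counts was to be used.

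Counts were normalised by TMM (edgeR 4.0.16) and fitted with limma-voom 3.58.1 in R 4.3.3, with all 12 libraries and 1 mean per group, on 17922 loci with a mean above 0.1 FPKM in a group. P-values were two-sided and Benjamini-Hochberg adjusted over all loci tested, with a threshold of 0.05. The fit was tested on simulated counts. Fold changes without "fold" in their unit are log2 with SE. Myl7 and Mylpf carry no p, because their pattern chose the set. Of each contractile and regulator list the rule names the 2 called loci with the highest FPKM in each direction, in both Eo+ comparisons, plus a few genes that define cardiac or smooth muscle. The marker lists are given as sums. No 2 libraries agreed within counting noise. The study's methods place the 12 libraries in 4 differentiation sets of 1 reporter line, so p-values measure the spread between these sets. The labels do not say that a number marks a set. Same-numbered Eo− and Eo+ libraries deviated together (r of 0.634, 0.316, 0.348 and 0.355 for numbers 1, 2, 5 and 6), which was taken as pairing. The main fit and its p-values did not use this pairing, and only the replicate block among the alternatives did. For ESC the same-number r ranged from −0.0897 to 0.128 with Eo+ and from −0.122 to 0.352 with Eo−. The alternatives were DESeq2 1.42.0 size factors, library totals, a filter of 1 CPM in 4 libraries, no filter, edgeR, DESeq2, the replicate block, and leaving out each library. Promoters came from the RefSeq table of GRCm38.p6. Some loci that the rules would name are not reported here.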

Additional observations from a re-analysis of the deposited data

Results flagged for a closer look

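Tnni1, slow skeletal troponin I, held 1.85 CPM in Eo+ replicate 1, far from the other Eo+ libraries (0.426, 0.412 and 0.646 CPM). Its gap to the nearest of them, divided by the range of the group, was above Dixon's 95% critical value for 4 samples. It was the 1 value so marked among 24 groups of 4 libraries, and chance alone marks about 1 in 20 such groups. The same library held the highest Tnnt2 level and the highest visceral endoderm sum of all libraries, as given above. The cause was not tested.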

How the results depend on the processing

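Of the log2 fold changes of the 5 tested members under the alternatives, 259 kept direction and side of the threshold, 12 gained and 8 lost the call, and 6 turned sign. Apart from Myl7 and Mylpf, the number of members called for Eo+ against ESC was 1 with edgeR (71.8% of all loci called) against 2 with limma, and 1 to 3 when single libraries were left out (68.9% to 71.9%). For Eo+ against Eo− it was 2 with no filter (35% of all loci), where Tnnt2 enters the test, against 1 with it, and 1 to 3 when single libraries were left out (41.8% to 49.3%). For Eo− against ESC it was 2 to 4 over all alternatives, beside 3 (51.4% to 66.1%). Tnni1 in Eo+ vs Eo−, which was not called, turned from −0.07 to 0.22 with edgeR, 0.22 with DESeq2 and 0.014 with the replicate block, and ranged from −0.57 to 0.18 when single libraries were left out. Tpm1 in Eo+ vs ESC ranged from −0.29 to 0.16 and Myl2 from −0.50 to 0.0067 in the same way, neither being called. The cause was not tested. With the replicate block 46, 42 and 38 sarcomere loci were called for Eo+ against ESC, Eo− against ESC and Eo+ against Eo−, where the share of all loci called also rose, to 74.8%, 66.1% and 53.3%. The block ended the call of Actc1 in Eo− vs ESC (−1.60, limma adjusted p = 0.0554) and changed no other member call. The sarcomere counts were 35, 30 and 27 of 43 loci tested with the filter of 1 CPM (72.1%, 61.9% and 47.6% of all loci) and 58, 53 and 38 of 80 with no filter (61.6%, 51.4% and 35%), so these counts follow the number tested. Myl7 stayed above 0 and Mylpf below 0 in each comparison under every alternative. Counts per locus do not separate splice forms or Tnnc1 from Sema3g.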
